A study of Danio rerio with 3 samples.

Results

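Ribosomal protein genes were followed along the heart of the zebrafish embryo. A gene row was taken as a member when its symbol began with rpl, rps or rack1 followed by a digit or by nothing, and S6 kinase names and mitochondrial ribosomal proteins were left out. This gave 72 of 16023 gene rows, 38 of the large and 34 of the small subunit, with RACK1 counted among the small subunit rows. Of the 72 rows, 64 carry the name of a human match, printed in capitals, and not a zebrafish name. Some names that the rule admits are not core ribosomal proteins: rps19bp1 encodes a protein that binds RPS19, and RPL7L1 acts in ribosome assembly. The row rps27a encodes a small subunit protein that is made fused to ubiquitin. Another 6 rows, among them RPLP0, RPLP1, rplp2l, RPSA2 and faub, lie outside the rule and are given apart.

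Ribosomes are built in the nucleolus from ribosomal RNA and one copy of nearly every ribosomal protein, and cells that grow and divide make more of them. The messages of these proteins begin with a run of pyrimidines, through which the mTOR pathway adjusts their translation as a group. Loss of single members in humans causes Diamond-Blackfan anaemia, in which too few red blood cells form and the heart can be malformed.

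The study cut 3 hearts of wild-type TL zebrafish at 2 days post fertilization (48 hours) into 10 µm sections and sequenced each section by CEL-seq, a method that reads the 3′ ends of messages. Hearts were dissected by hand and straightened before freezing, and none carried a transgene or had a treatment. The 3 hearts, separate animals, are the replicates (n = 3), while sections of one heart are not. Windows on the section scale of heart 1 were the outflow tract (sections 4 to 10), ventricle (12 to 18), atrioventricular (AV) canal (19 to 26), atrium (27 to 32) and sinoatrial region (33 to 39), and hearts 2 and 3 were placed on that scale through the ventricular and atrial myosin genes vmhc and myh6. The name outflow tract stands for a place at the arterial end and not for a cell type. For the first 10 sections of heart 1 the paper held an arterial pole without heart muscle to be most likely.

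Hearts 1, 2 and 3 held 5889097, 5243516 and 2590278 gene reads in 40, 48 and 29 sections, of which 7, 9 and 13 had fewer than 10000 reads. Levels are given as reads per 10000 gene reads and are shares, so that fewer cells of a type and less RNA per cell cannot be told apart. They are not divided by gene length, because each message is read from its end. A single unnamed row, ENSDARG00000080337, took 37.8%, 24.2% and 19.2% of the gene reads of hearts 1, 2 and 3. The outflow window of heart 3 holds 14700 gene reads and goes against its label: 21 heart muscle rows (myosins, troponins and other sarcomere genes) summed to 921 of 10000 there and 712 in the rest of that heart, against 17.2 and 476 in heart 1 and 4.67 and 418 in heart 2. Of these rows, 11 had no read in that window, while MYL7, the light chain of heart muscle myosin, stood at 108 of 10000. Results that rest on this window are therefore given with and without it.

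Ribosomal protein reads made up a large and ordered part of each heart. The 72 rows gave 1419 of every 10000 gene reads in heart 2 (95% Wilson limits 1416 to 1422), 919 in heart 1 (916 to 921) and 684 in heart 3 (681 to 687). These limits cover counting error only, and reads may include PCR copies, since the sources do not say whether molecular identifiers were counted. Without the unnamed row the levels were 1477, 1871 and 847 of 10000 in hearts 1, 2 and 3, so heart 3 was again the lowest. The hearts also differed in where their reads lay. Sections before section 12 of the heart 1 scale held 1720051, 3988990 and 14700 gene reads in hearts 1, 2 and 3. In the 4 windows other than the outflow tract together, the levels were closer, at 703, 810 and 678 of 10000. Of the 72 rows, 71 had a read in all 3 hearts, the exception being rps11l, which had no read in heart 3.

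A few members supplied much of the total. The 5 rows with the most reads were RPL27, RPS9, RPS12, RPS23 and rps20, which together made up 17.5%, 21.8% and 18.8% of ribosomal protein reads in hearts 1, 2 and 3. RPL27, a large subunit protein, stood at 40.2, 79.1 and 30.6 of 10000 in hearts 1, 2 and 3, and RPS9, a small subunit protein, at 35.1, 64.9 and 27.07. RPS12, of the small subunit, stood at 33.2, 58.2 and 29.6, RPS23, which lies at the decoding centre, at 24.9, 56.1 and 18.5, and rps20 at 27.5, 50.8 and 22.9. All 5 were higher in heart 2 than in the other hearts over all sections together, and most reads of heart 2 came from its arterial end. In the windows other than the outflow tract all 5 were again highest in heart 2. There RPL27 stood at 30.2, 48.7 and 30.9 in hearts 1, 2 and 3, and RPS12 at 23.1, 30.9 and 30.6. The cause was not tested. Among the rows with the fewest reads, rps11l had 3, 5 and 0 reads in the 3 hearts, RPL3 had 37, 68 and 3, and rps19bp1 had 102, 259 and 3. RPL3 encodes a core protein of the ribosome, yet its row lies far below those of most partners.

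**Figure D1:**
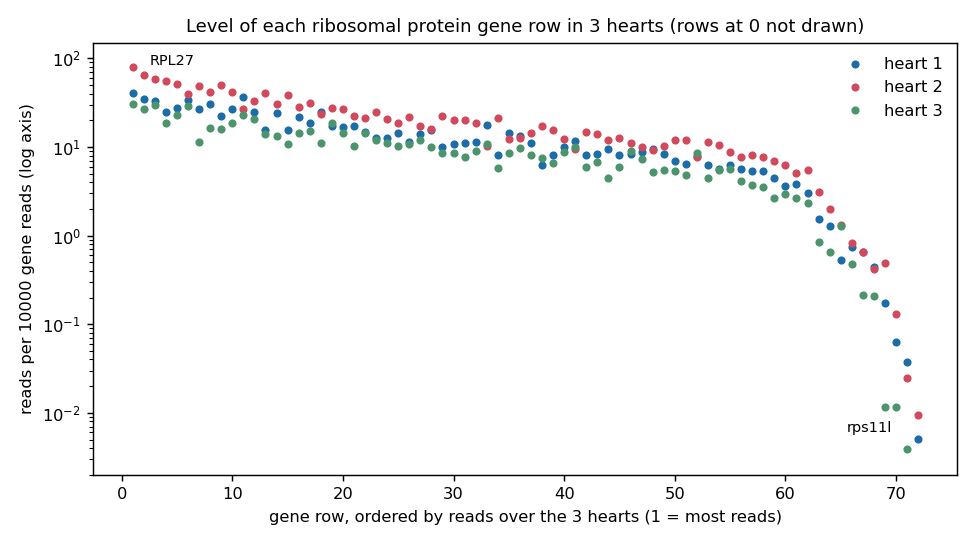
Level of each ribosomal protein gene row (reads per 10000 gene reads, log axis) against its rank by reads over 3 hearts; points are hearts 1, 2 and 3, and a row with no read in a heart is not drawn there. Most rows lie between 1 and 80 of 10000, and the last 10 fall off steeply in every heart.

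The order of the members was much alike between animals. Over the 72 rows the Spearman correlation of levels was 0.91 between hearts 1 and 2, 0.96 between hearts 1 and 3 and 0.92 between hearts 2 and 3; the points are genes of the same libraries. The balance of subunits differed a little more. Small subunit rows had 1.298 times the reads of large subunit rows in heart 2, and 1.13 times in both heart 1 and heart 3.

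Along the heart the summed level was highest at the arterial end in hearts 1 and 2. In heart 1 the 8 sections before place 12 with at least 10000 gene reads ranged from 1088 to 1983 of 10000, with a median of 1426, and the 25 sections from place 12 on ranged from 352 to 999, with a median of 671. In heart 2 the 8 arterial sections ranged from 1302 to 2294 with a median of 1641, and the 31 others from 428 to 1789 with a median of 779. The groups of sections did not overlap in heart 1, while in heart 2 only 3 of the 8 arterial sections exceeded every other one, because section 87, at place 12.9, reached 1789. Heart 3 had no section of that depth before place 12. Its 5 shallow arterial sections ranged from 616 to 1419 and its 16 deeper sections further on from 284 to 998, so these ranges overlapped. Its shallow sections 32, 33 and 34, in the ventricle window, reached 1247, 1534 and 1702 on 8539, 1623 and 2491 gene reads. The highest section of heart 3 therefore lay in the ventricle window.

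**Figure D2:**
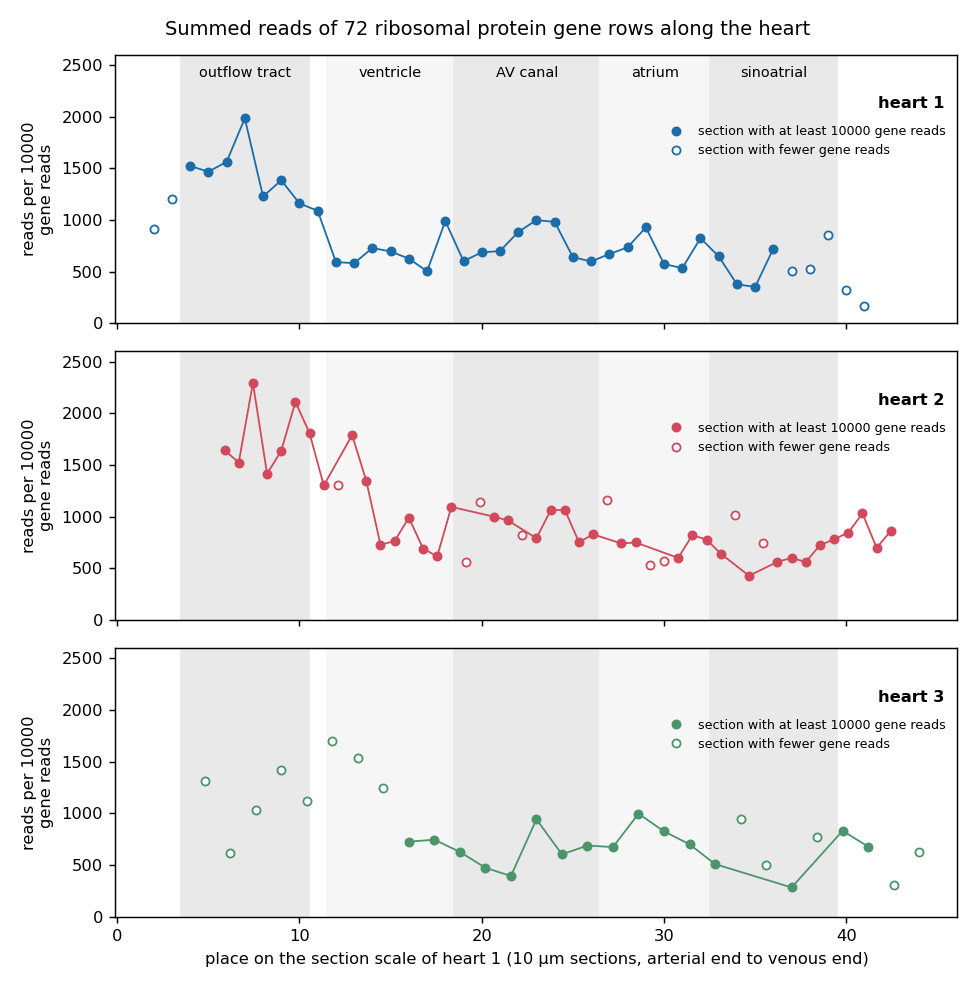
Ribosomal protein reads per 10000 gene reads in each section, by its place on the section scale of heart 1 from the arterial to the venous end; filled points are sections with at least 10000 gene reads, open points have fewer, and shaded bands are the 5 windows. Hearts 1 and 2 stand highest at the arterial end, with peaks of 1983 and 2294, and heart 3 has only shallow sections there.

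Members varied together from section to section only in part. Each member was correlated with the summed share of the others over the sections of at least 10000 gene reads, and the median Spearman correlation was 0.58 in heart 1 (33 sections, 68 members), 0.50 in heart 2 (39 sections, 69 members) and 0.38 in heart 3 (16 sections, 64 members). RPL38 followed the others most closely in heart 1 (0.84), RPS9 in heart 2 (0.78) and RPL35 in heart 3 (0.82). The lowest value belonged to RPL10 in heart 1 (0.26) and to RPS6, the small subunit protein phosphorylated on mTOR signalling, in heart 3 (-0.12). Sections share a library and a total, and the summed share itself had a correlation with section depth of 0.19, 0.38 and 0.36 in hearts 1, 2 and 3.

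By window, the one placed at the outflow tract had the highest summed level in each heart. In hearts 1 and 2 the outflow smooth muscle genes elnb and acta2 were near 0 there, as given below. Ribosomal protein reads were 1454 of 10000 in the outflow tract of heart 1 (1449 to 1459), against 703 in its other 4 windows together (701 to 706). In heart 2 the values were 1603 in the outflow tract (1599 to 1607) and 810 in the rest (805 to 815), and in heart 3 they were 1229 (1177 to 1283) and 678 (674 to 681). The outflow level was thus 2.07, 1.98 and 1.81 times that of the rest in hearts 1, 2 and 3, and the 3 outflow levels all exceeded the 3 others. With the unnamed row left out of the gene reads the ratios were 1.70, 1.75 and 1.53. With hearts 2 and 3 placed by their deeper sections, an alternative added after seeing the data, the ratio was 1.72 in heart 2 and only 1.16 in heart 3.

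**Figure D3:**
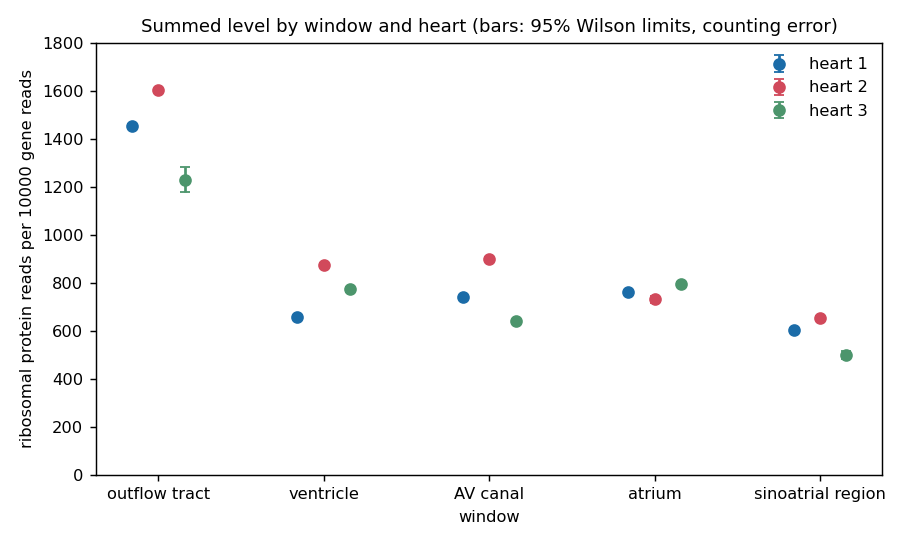
Summed ribosomal protein reads per 10000 gene reads in 5 windows of hearts 1, 2 and 3, with 95% Wilson limits for counting error, most of them smaller than the points. Outflow tract levels of 1454, 1603 and 1229 lie above every other window of every heart, whose highest value is 899, and the sinoatrial region is the lowest window of each heart.

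The higher outflow level was found in both subunits in the deeply read hearts. Small subunit rows summed to 776 of 10000 in the outflow tract of heart 1, against 371 in its rest, and to 913, against 446, in heart 2. Large subunit rows summed to 678 in the outflow tract of heart 1, against 332, and to 690, against 363, in heart 2. The ratios were 2.09 and 2.04 for the small and 2.04 and 1.90 for the large subunit in hearts 1 and 2. In heart 3 the outflow tract gave 667 for the large subunit and 563 for the small, against 319 and 359 in the rest.

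Member by member, 71 of 72 rows stood higher in the outflow tract than in the rest in heart 1, as did 70 of the 70 rows with a read in the rest in heart 2. In heart 3 it was 32 of 71. Over all 5488 genes that passed the low-count filter of the fit below, 56.9% of heart 1, 46.7% of heart 2 and 5.36% of heart 3 stood higher in the outflow tract. In the outflow window of heart 3, 29 of the 72 members had no read and the median member had 5.5. The outflow tract was the highest of the 5 windows for 67, 64 and 25 of the 69 members that passed the filter in hearts 1, 2 and 3, and for 34.8%, 21.8% and 12% of all genes tested. The 3 outflow levels of a row lay above its 3 levels in the rest for 26 of these 69 members and for 1.31% of genes tested. That share is not matched for abundance: in heart 3 even genes with at least 100 reads had a median ratio of outflow tract to rest of 0. In hearts 1 and 2 alone both outflow levels lay above both levels in the rest for 68 of the 69 members that passed the filter, against 24.8% of genes.

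In hearts 1 and 2 the ratios of single members lay close together. Among the 65 members with at least 1000 reads the outflow level was between 1.5 and 3 times that of the rest for 61 in heart 1 and 59 in heart 2, and above the rest for each of the 65 in both. The order of members hardly differed between the outflow tract and the rest, with a Spearman correlation of 0.98 over 72 rows in each of hearts 1 and 2. In heart 3 only 11 of the 65 ratios lay between 1.5 and 3. They ranged there from 0 to 9.62 (RPL31), and the correlation was 0.45. The share of all genes between 1.5 and 3 was not counted. For comparison, genes with at least 100 reads had a median ratio of 1.29 in heart 1 (4034 genes) and 1.12 in heart 2 (3623 genes), where members that met the same limit had medians of 2.05 and 1.99. Of all these genes 32.1% in heart 1 and 29.3% in heart 2 exceeded the members' median, so the members lay above the median gene but not at the top.

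**Figure D4:**
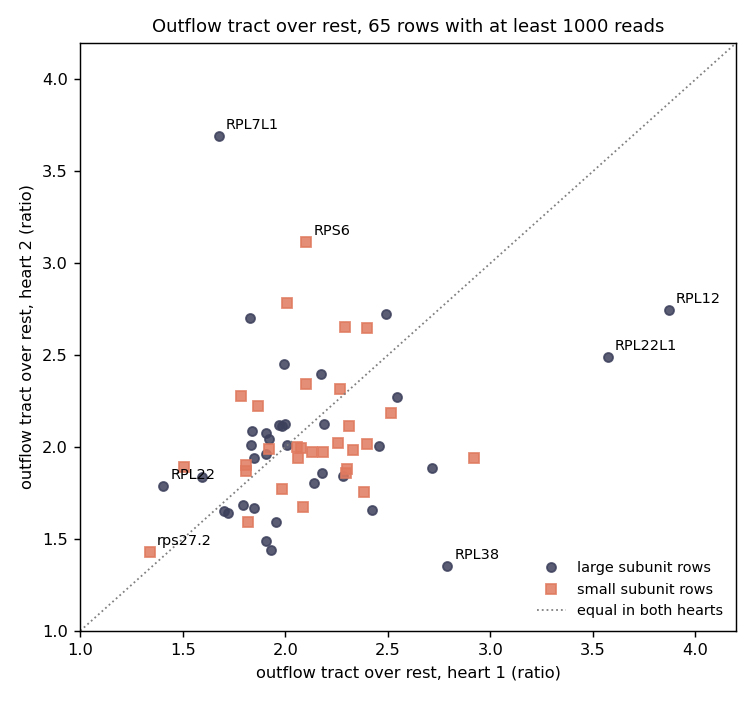
Outflow tract level over the level in the rest, heart 1 (horizontal) against heart 2 (vertical), for the 65 ribosomal protein rows with at least 1000 reads over 3 hearts; circles are large subunit rows, squares small subunit rows, and the dotted line marks equal ratios. Every point lies above 1 in both hearts, and RPL12 (3.87 and 2.74) and RPL22L1 (3.57 and 2.49) lie far to the right.

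Across the 3 hearts no member passed the test between the outflow tract and the rest. Window sums were fitted with limma on log2 CPM with voom weights, the heart as a block, and p adjusted by the Benjamini-Hochberg method over 5488 genes, 69 members among them (RPL3 and rps11l were among the 3 that did not pass the filter). In that fit 0 of 69 members were called higher and 0 lower, where 0.784% of genes were called higher, 1.22% lower and 2% in either direction. The variance of the fit of 3 hearts was pooled fully over genes (43904 total degrees of freedom). Each SE and p of that fit therefore rests on a common spread and the weights, and does not measure the member's own spread between hearts. At an unadjusted p under 0.05 the fit gave 3 members higher and 0 lower (9.99% and 4.37% of genes), and limma without the weights also called 0 members. Counted by heart, 37 of 69 were higher in the outflow tract in all 3 hearts and 0 lower (43.2% and 6.56% of genes, with 0.5 added to each count). In the outflow window of heart 3, of 14700 reads, the added 0.5 can score a gene with no read there as higher. Without it 5.36% of genes and 46.4% of members stood above the pooled rest in heart 3, so the 43.2% is not a fair background. The same 0.5 was added in the counts by heart of the other comparisons. The median fitted log2 fold change was 1.06 over the members and 0.95 over all genes tested, and 46.8% of all genes exceeded the members' median. With the outflow tract set against 1 pooled sum of sections 12 to 39, in a fit of its own, both medians were below 0, at -0.26 and -0.34.

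These counts turned on heart 3. Without that heart 58 of 69 members were called higher and 0 lower, against 10.4% of 4774 genes called higher and 3.77% lower, and without its outflow window alone 38 of 69 were called higher, against 4.99% of 5516 genes (2.01% lower). The size of that count also differed by the form of the fit: limma on log2 CPM with a prior count of 2 and no weights, run on hearts 1 and 2 and added after seeing the data, called 16 of 69 higher and 0 lower, against 0.775% of genes higher and 1.65% lower. The median log2 fold change in the weighted fit of hearts 1 and 2 was 1.24 over members and 1.07 over all genes, and 44.9% of all genes exceeded the members' median. By raw shares, among genes with at least 100 reads, 32.1% in heart 1 and 29.3% in heart 2 exceeded it. The shares of genes called are not matched for abundance, and the members are among the more abundant rows. In these fits too SE and p draw on the spread of other genes. A small p on 2 hearts therefore does not measure a member's own spread between hearts. Among the members, the smallest adjusted p of that weighted limma fit belonged to RPS12 (log2 fold change 1.38 ± 0.16 SE, adjusted p = 1.88e-07), followed by RPL27 (1.18 ± 0.14, adjusted p = 5.72e-07) and RPL38 (1.34 ± 0.17, adjusted p = 1.3e-06), and in the fit with no weights RPS12 (1.46 ± 0.27) was again first of the members, with an adjusted p of 0.00412. The 11 members not called with the weights included RPL17, RPS7, RPL22, RPL7L1, rps19bp1, RPL10, rps27.2, RPL13A and rpl7a, and each of the 11 also had a fold change above 0. Leaving out sections under 10000 reads, which removes heart 3 from the outflow tract, called 13 of 69 higher (3.2% of genes, and 1.91% lower), and placing hearts 2 and 3 by their deeper sections called 22 of 69 higher (1.46% of genes, and 1.41% lower). Without heart 2 or without heart 1 the count was 0.

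Members whose smallest difference over the hearts was largest come next, a choice made on these same values. Their one sign in every heart follows from that choice, and the gap between their levels does so in part. RPL22L1, a paralogue of RPL22, had an outflow level of 6.17, 6.70 and 6.80 of 10000 in hearts 1, 2 and 3, compared with 1.73, 2.69 and 2.55 in the rest. All outflow values lay above all others, although the value of heart 3 rests on 10 reads. The fitted log2 fold change was 2.01 ± 1.08 (SE) with an adjusted p of 0.384 by limma, and 1.92 ± 0.50 with an adjusted p of 0.0103 without heart 3. That call was lost in the fit of hearts 1 and 2 with a prior count of 2 and no weights (1.96 ± 0.62, adjusted p = 0.124).

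For rps20, a small subunit gene, the outflow tract gave 46.4, 62.7 and 55.1 of 10000 and the rest gave 20.1, 29.6 and 22.99 in hearts 1, 2 and 3. Its groups did not overlap and the ratio was nearly the same in each heart (2.31, 2.12 and 2.40). RPL9, of the large subunit, had 15.8, 25.9 and 31.3 in the outflow tract, against 7.27, 10.8 and 8.22 in the rest. By heart the log2 differences were 1.34, 1.17 and 1.25 for rps20 and 1.16, 1.60 and 2.13 for RPL9, a spread that the pooled SE does not measure. The limma fit gave rps20 a log2 fold change of 1.33 ± 0.83 (adjusted p = 0.443) and RPL9 one of 1.58 ± 0.93 (adjusted p = 0.42), neither past the threshold. Without heart 3 both passed it, rps20 at 1.38 ± 0.18 (adjusted p = 1.54e-06) and RPL9 at 1.46 ± 0.29 (adjusted p = 0.00108), as they did without its outflow window alone (adjusted p = 0.000131 and 0.0179). In the fit of hearts 1 and 2 with no weights rps20 passed (adjusted p = 0.0147) and RPL9 did not (adjusted p = 0.0909).

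RPS26, whose protein lies near the messenger RNA channel, has 2 rows. The row ENSDARG00000037071 had outflow levels of 13.9, 17.9 and 10.2 of 10000 in hearts 1, 2 and 3, compared with 5.78, 6.74 and 5.42 in the rest. The row ENSDARG00000030408 stood at 26.7, 24.7 and 72.1, against 13.4, 13.96 and 9.003. Both rows were higher in the outflow tract in each heart, and the second of them was 1 of the 3 members with an unadjusted p under 0.05, beside RPS2 and rps19bp1. RPS2, at the entry of the messenger RNA, had 48.0, 45.8 and 76.9 in the outflow tract, against 23.3, 23.6 and 14.1 in the rest. The count of rps19bp1 was low, with 57, 147 and 0 outflow reads, and its fitted log2 fold change of 2.92 ± 1.37 had an adjusted p of 0.302 by limma. Without heart 3 the adjusted p was 0.000844 for the row ENSDARG00000037071, 0.000612 for the other RPS26 row, 1.64e-05 for RPS2 and 0.115 for rps19bp1.

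RPL18 completed the 5 members whose smallest difference over the hearts was largest, with 16.9, 22.03 and 12.2 of 10000 in the outflow tract, against 8.61, 10.4 and 8.26 in the rest. The most abundant member, RPL27, had 64.6, 88.01 and 119 in the outflow tract, against 30.2, 48.7 and 30.9 in the rest. By contrast RPS12 had an outflow level of 58 and 67.5 in hearts 1 and 2, compared with 23.1 and 30.9 in the rest, but 0.680 in that of heart 3, against 30.6. The value of 0.680 is 1 read. RPS10 and RPS24 had no read at all in the outflow window of heart 3, against 11.4 and 7.16 in the rest. In the fit the lowest log2 fold changes were those of RPS29 (-0.05 ± 0.96, adjusted p = 0.981) and RPS15 (-0.01 ± 0.99, adjusted p = 0.998), which likewise had no outflow read in heart 3. Without that heart these were 1.13 ± 0.20 (adjusted p = 0.000274) and 1.05 ± 0.24 (adjusted p = 0.00282).

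Members named in Diamond-Blackfan anaemia had ratios close to those of the whole family in hearts 1 and 2. Of 11 such symbols, 10 had rows, 12 in all, and no row carries the name RPL26. Their summed level was 259 of 10000 in the outflow tract of heart 1, against 128, and 272, against 138, in heart 2, which is 2.03 and 1.98 times. Single rows ranged from 1.79 times (RPL35A) to 2.92 times (RPS24) in heart 1 and from 1.59 times (RPS7) to 2.65 times (RPS19) in heart 2. RPS19, mutated most often in the disease, had 13.7 and 14.8 in the outflow tract, against 5.96 and 5.57 in the rest. In heart 3 the 12 rows summed to 107 in the outflow tract, against 110 in the rest, and 6 of them had no outflow read. RPL11 and the rows of RPL5, which with 5S RNA hold back the p53 inhibitor Mdm2 when ribosome assembly fails, are among the 12: RPL11 had an outflow level of 10.3 and 12.1 in hearts 1 and 2, compared with 3.81 and 6.43 in the rest. RPL15, also on that list, had a ratio of 1.98 in heart 1 and 2.12 in heart 2.

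Rows for one protein or its paralogue differed in their shares along the heart, with no test over hearts. RPL22L1 took 30.2% (28.7 to 31.7) of the reads it shares with RPL22 in the outflow tract of heart 1, against 14.5% (13.6 to 15.5) in the rest, and 24.9% (23.9 to 25.9) in that of heart 2, against 19.2% (17.4 to 21.2). Its share was higher in the outflow tract in both hearts, and lowest in heart 1 in the sinoatrial region, at 4.82% on 21 reads of RPL22L1 and 415 of RPL22. In heart 2 the outflow tract was not the highest window. The atrium gave 42.5% on 31 and 42 reads, and the ventricle 26.6% (23.2 to 30.4) on 150 and 413, with limits that overlap those of the outflow tract. Heart 3 gave 90.9% on 10 outflow reads and 1 (62.3 to 98.4), against 22.8% in the rest.

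The rows rps27.2 and rps27.1 differed the other way. The share of rps27.2 was 26.7% (25.6 to 27.9) in the outflow tract of heart 1, against 35.9% (34.9 to 36.9), and 21.1% (20.3 to 21.9), against 27.21% (25.4 to 29.1), in heart 2. All 66 outflow reads of the pair in heart 3 were of rps27.2. Of the 65 members with at least 1000 reads rps27.2 had the lowest ratio of outflow tract to rest in heart 1 (1.34) and RPL38 in heart 2 (1.35), where RPL38 had a ratio of 2.79 in heart 1.

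The RPL5 row ENSDARG00000015862 held 60.9% of the reads of both RPL5 rows in the outflow tract of heart 1, against 52.9% in the rest, and 65.1% (64.1 to 65.95), against 62.3% (60.1 to 64.4), in heart 2, where the limits overlap. In heart 1 the ventricle was higher still, at 65.2% (62.9 to 67.5). The RPS26 row ENSDARG00000030408 held 65.8% in the outflow tract of heart 1, against 69.9%, and 58.1%, against 67.5%, in heart 2, but 87.6% (80.6 to 92.3) on 106 and 15 reads, against 62.4%, in heart 3. Its share was lower still in the atrium of heart 1 (58.6%) and in the sinoatrial region of heart 2 (54.2%). Rows of near-identical copies may share reads, so these splits are uncertain. RPL7L1 made up 2.80% of its pair with RPL7 in the outflow tract of heart 1, against 3.17%, but 5.05%, against 2.75%, in heart 2, with no common direction.

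**Figure D5:**
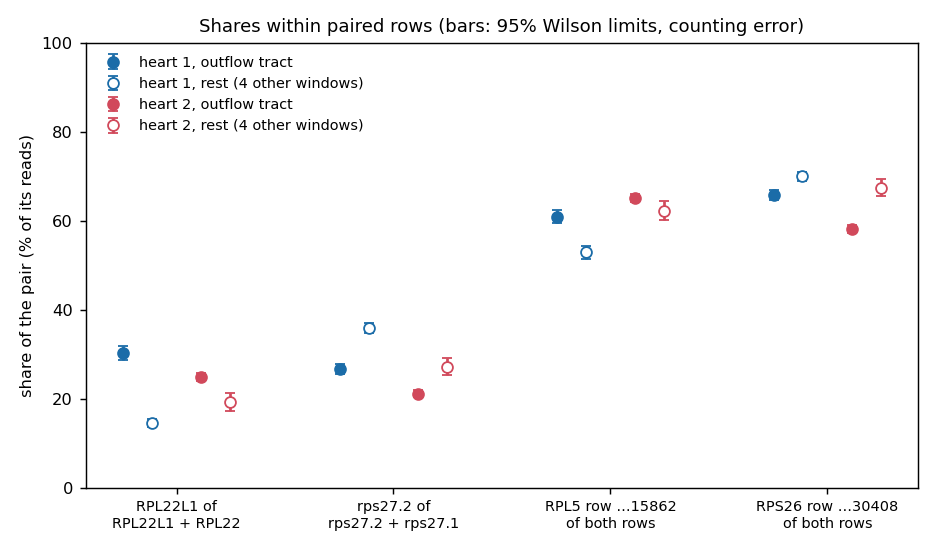
Share of the reads of 4 pairs of rows taken by the row named first on the axis (for RPL5 and RPS26 by the last digits of its identifier), in the outflow tract (filled) and in the 4 other windows (open) of hearts 1 and 2, with 95% Wilson limits for counting error. RPL22L1 took more of its pair in the outflow tract (30.2% and 24.9%) than in the rest (14.5% and 19.2%), and rps27.2 took less of its pair (26.7% and 21.1%, against 35.9% and 27.21%).

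Among the windows, the family was at its lowest in the sinoatrial region. The summed level in the sinoatrial region was 603 of 10000 in heart 1, 654 in heart 2 and 498 in heart 3, against 658, 873 and 773 in the ventricle and 760, 731 and 794 in the atrium. It lay below both chambers in every heart. Some sections past this window, nearer the venous tip, were not as low. Heart 2 reached 863, 698, 1032 and 846 of 10000 in its sections 49 to 52, each with at least 10000 gene reads. Sections 13 and 14 of heart 3 stood at 679 and 832 on 191446 and 67220 gene reads. Its shallow sections 11 and 12 gave 632 and 309. For heart 1 only the shallow sections 40 and 41 lay past the window, at 325 and 172. No member passed the limma test against the chambers (0 of 69 in either direction, where 0.0182% of genes were called higher and 0% lower). With p unadjusted and under 0.05 the fit held 0 members that were higher and 2 that were lower, RPL7L1 and RPL29 (3.61% and 4.56% of genes), and limma without weights also called 0. A lower level in all 3 hearts was seen for 30 of 69 members, against 13.8% of genes tested, and a higher one for 0, against 14.3%. As for the outflow tract, these counts by heart include the amount added to each count. The sinoatrial window of heart 3 holds 57203 gene reads, against 224515 in its ventricle and 398990 in its atrium. A gene with no read in that window can therefore score as higher. Neither the 13.8% nor the 14.3% is thus a fair background for the members. The median fitted log2 fold change was -0.85 over the members and -0.25 over all genes, and with another scaling (RLE factors) these medians were -0.17 and 0.44. By heart, with 0.5 added, the members' medians were -0.20, -0.23 and -1.07 in hearts 1, 2 and 3, and those of all genes 0.12, 0.10 and -0.09. The sinoatrial region was the lowest window, ties included, for 33, 37 and 33 of the 69 members in hearts 1, 2 and 3, and for 43.7%, 38.6% and 85.6% of genes tested. The 6 ribosomal protein rows outside the rule were lowest there in hearts 1 and 2 (60.3 and 59.8 of 10000). In heart 3 they were highest there, at 92.8, against 49.2 in the ventricle and 73.5 in the atrium.

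Single members with one sign in the 3 hearts included RPL22L1, at 0.550, 2.05 and 0 of 10000 in the sinoatrial region of hearts 1, 2 and 3, against 2.12, 3.54 and 4.59 in the ventricle and 1.88, 2.84 and 2.56 in the atrium. RPL11 had 3.09, 3.46 and 1.22 in the sinoatrial region, against 3.74, 4.56 and 4.32 in the ventricle. The adjusted p by limma were 0.612 and 0.816. The sinoatrial window of heart 3 holds 57203 gene reads, and RPS23 alone reached 76.6 of 10000 there, where it had 19.6 and 20.1 in hearts 1 and 2. RPL7L1 had 0.603, 0 and 0 in the sinoatrial region, against 0.246, 0.922 and 0.980 in the ventricle and 0.275, 1.01 and 5.04 in the atrium, with a log2 fold change of -3.32 ± 1.55 (adjusted p = 0.545). RPL29 had 7.92, 3.49 and 0, against 8.38, 5.70 and 11.4 in the ventricle and 13.7, 8.07 and 9.85 in the atrium (-2.53 ± 1.25, adjusted p = 0.596), so that each of its sinoatrial values lay below both chambers of the same heart. The largest values above 0 were those of RPL6 (0.39 ± 1.11), RPL17 (0.38 ± 1.27) and RPS23 (0.15 ± 1.03). RPL23, RPS4Y2 and RPL21 were also lower in each heart, with log2 fold changes of -1.305 ± 1.21 (adjusted p = 0.825), -0.88 ± 1.23 (adjusted p = 0.898) and -2.28 ± 1.31 (adjusted p = 0.658).

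Between the chambers no common direction was found. The summed level of the ventricle was below that of the atrium in heart 1 (658 and 760) and heart 3 (773 and 794) and above it in heart 2 (873 and 731). Limma called 0 of 69 members between ventricle and atrium (0.0182% of genes higher, 0.0729% lower, 0.0911% in either direction), 0 with p unadjusted (5.23% of genes higher and 2.46% lower at p under 0.05) and 0 without weights. Members higher in the ventricle of all 3 hearts numbered 9 (16% of genes tested) and lower ones 10 (9.62%). First by p was rpl7a, of the large subunit, with 0.831, 0.284 and 0.401 of 10000 in the ventricle, against 0.458, 0 and 0.251 in the atrium, a difference on few reads (adjusted p = 0.893). RPL10 and RPS2 had log2 fold changes of 0.91 ± 1.62 and 0.65 ± 1.16, and RPS10 and the RPS26 row ENSDARG00000030408 ones of 0.76 ± 1.18 and 0.70 ± 1.23, each with an adjusted p of 0.949. Below 0 lay rps27.2 (-0.76 ± 1.305), RPL7L1 (-0.85 ± 1.65), RPS25 (-0.54 ± 1.23) and RPL30 (-0.16 ± 1.33), each with an adjusted p of 0.949 or more.

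The AV canal, where valves form, also gave no call. Its summed level was 742, 899 and 642 of 10000 in hearts 1, 2 and 3, which lay between the levels of both chambers in heart 1, above both in heart 2 and below both in heart 3. Limma called 0 of 69 members against the chambers (0.0182% of genes in each direction, 0.0364% in either), 0 with p unadjusted (7.84% of genes above 0 and 1.22% below at p under 0.05) and 0 without weights. By heart, 11 members were higher and 5 lower in all 3 hearts (18.9% and 9.18% of genes). RPS24 and RPL22L1 led the lower ones in size over the hearts, with fitted log2 fold changes of -0.26 ± 1.08 and -0.02 ± 1.23, and RPS10 and RPL8 had values of 0.82 ± 0.95 and 0.73 ± 1.09. RPL17 (0.97 ± 1.17, adjusted p = 0.851), RPL7L1 (-1.36 ± 1.45, adjusted p = 0.827) and rps19bp1 (-0.29 ± 1.64, adjusted p = 0.967) were among the members with the smallest p in their direction. The median over members was 0.50, against 0.79 over all genes.

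Genes that work beside the ribosomal proteins gave values of the same order. The 6 ribosomal protein rows outside the rule, among them the stalk proteins RPLP0 and RPLP1, had outflow levels summing to 179, 195 and 79.6 of 10000 in hearts 1, 2 and 3, compared with 72.4, 83.3 and 64.03 in the rest. The 8 elongation factor rows, led by eef1a1l1, which brings aminoacyl-tRNA to the ribosome, gave outflow levels of 148, 121 and 55.1, against 65.3, 70.9 and 75.0. The 36 rows of initiation factors and poly(A)-binding proteins gave outflow levels of 74.002 and 81.7 in hearts 1 and 2, compared with 39.8 and 49.1 in the rest, and 8 other genes with a pyrimidine start, led by BTF3, gave 44.9 and 40.2, against 17.9 and 21.2. Each of these lists was higher in the outflow tract in hearts 1 and 2. In heart 3 the elongation factors were lower there, 35 of the 36 initiation factor rows had no read and none of the 8 others had one.

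Other parts of the growth machinery differed in size. Ribosome assembly genes (47 rows) had summed outflow levels of 21.3 and 36.2 in hearts 1 and 2, compared with 12.9 and 22.4 in the rest. Cell cycle genes (20 rows) summed to 21.6 and 43.2, against 9.43 and 11.0. Mitochondrial ribosomal proteins (65 rows), which serve the ribosomes inside mitochondria, gave 18.5 and 21.003, against 22.1 and 25.6, and so were the one list of these that was lower in the outflow tract in both hearts. In heart 3 they went the other way, at 73.5, against 30.8, with 62 of 65 rows at no outflow read, while assembly and cell cycle rows had no outflow read at all, against 19.6 and 12.7 in the rest. The limma fit called 1 elongation factor row, EEF2, lower between outflow tract and rest (7 rows tested, median log2 fold change 0.82), and 0 of the tested rows of the other 6 lists (6, 29, 4, 34, 15 and 59 rows, with medians of 1.00, 0.97, 0.89, 1.63, 1.85 and 0.77), where the median over all genes was 0.95. These medians include the outflow window of heart 3, where most rows of several lists had no read. They need not follow the summed levels. The median of mitochondrial ribosomal proteins lay above 0, although their level was lower in hearts 1 and 2.

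Markers of other cells differed in the outflow tract too. Heart muscle rows were nearly absent from it in hearts 1 and 2 and the limma fit called 13 of 19 tested rows lower. Mesenchyme and matrix rows (21) summed to 39.1 in the outflow tract of heart 1, against 7.06 in the rest, but to 18.9, against 38.9, in heart 2, and 1 of 13 tested rows, twist1a, was called higher. Skin rows (17) gave 24.8 and 119.7 in hearts 1 and 2, against 18.5 and 41.5. Red blood cell rows (19) gave 30.3 and 0.794, against 14.2 and 43.1, without a common direction. Rows without an outflow read numbered 1 and 4 of the 21, 10 and 1 of the 17 and 4 and 11 of the 19. The outflow smooth muscle genes elnb and acta2 were near 0 in the outflow window, with 3 and 0 reads of elnb and 0 and 7 of acta2 in hearts 1 and 2. By acta2 the window goes against its name in hearts 1 and 2 as well. The gene elnb was near 0 in the rest too. In heart 1 it stood at 0.0180 of 10000 in the outflow tract, against 0.00240, and in heart 2 at 0 in both. In the rest of these hearts acta2 stood at 2.59 and 3.67 of 10000. Some other smooth muscle rows had more: MYH11 stood at 0.324 of 10000 in the outflow tract of heart 1 (54 reads), against 0.0216 in the rest, but at 0.0414, against 0.266, in heart 2. The TAGLN row ENSDARG00000033466 stood at 1.04 and 2.14 (173 and 619 reads), against 1.41 and 1.63. The other TAGLN row, ENSDARG00000045408, had only 1 and 0 outflow reads, against 0.379 and 0.823 of 10000 in the rest. In heart 3 the 3 lists stood at 1.36, 9.52 and 10.9 in the outflow tract, against 7.68, 21.1 and 6.94. The part of any of these cells in the ribosomal protein level was not tested.

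The genes whose section profile was most like that of the summed members were searched among 1163 genes with at least 200 reads in each heart, by the smallest of the 3 Spearman correlations over 33, 39 and 16 sections. The first was si:dkey-151g10.6, with 0.88, 0.74 and 0.64 in hearts 1, 2 and 3. Its level was 54.7, 80.7 and 28.6 in the outflow tract, against 19.9, 35.5 and 33.3 in the rest. It was followed by 2 unnamed rows (ENSDARG00000076892 and ENSDARG00000035756), SPCS3, a signal peptidase subunit, another unnamed row (ENSDARG00000082634), the chromatin protein gene hmga1a, the topoisomerase gene TOP1, the proteasome subunit gene PSMC2, tma7 and the histone gene h3f3d, whose smallest correlations lay between 0.40 and 0.49.

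Spike-in RNA gave another denominator. Per spike-in read the members had 17.1 reads in the outflow tract of heart 1, against 6.09 in the rest, and 4.83 against 0.201 in heart 2, but 0.421 against 11.3 in heart 3. All gene reads together lay on the same side, at 118, 30.1 and 3.42 per spike-in read in the 3 outflow windows, against 86.6, 2.48 and 166 in the rest. The value of heart 3 was the lowest of the 3 outflow windows.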

How the data were processed

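Per the labels and methods, the authors sequenced CEL-seq libraries of single sections and mapped reads to the Zv9 genome (BWA 0.6.2 stands in the submitters' processing notes). They deposited whole-number read counts per gene and section, not normalized. Of each table's 96 columns, 171 in all lie outside the labelled sections and were not used. Sections 17 to 24 of heart 1 were taken in the corrected sequence that its labels give. Spike-in rows were left out of totals. Of 16023 gene rows 12905 had a symbol in the name table.

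Sections were summed per window and heart (15 sums). Hearts 2 and 3 were placed by a straight line through the weighted median sections of vmhc and myh6 (16 and 30 in heart 1, 83 and 65 in heart 2, 31 and 21 in heart 3), with each section's share of reads as the weight; weights by raw reads were tried first and left a window empty. The row ENSDARG00000079564, named MYH6 in the name table, was taken as vmhc. The outflow window was read by eye from the study's plot of markers. The 5 windows of a heart come from 1 animal, so the heart is the block.

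The planned count test was not used, because the unit of these tables was recorded as other and not as counts. Limma 3.58.1 (R 4.3.3) with voom weights on log2 CPM took its place, where limma without weights had been written down, with TMM factors, a filter of 10 reads at the median library in 3 sums and 15 in total, and Benjamini-Hochberg adjustment over all genes tested (threshold 0.05). Limma on log2 CPM with a prior count of 2 was an alternative, beside other scaling, filters, blocks, windows and depths. The members, lists and windows were chosen with earlier results of these data known. Members named were those with the smallest p, the most or fewest reads, paired rows, Diamond-Blackfan anaemia genes and the 5 with the largest difference of one sign in every heart among rows of at least 50 reads per heart; RPL12, RPL38, RPS6, RPL35 and the members called or not called without heart 3 were named after their values were seen. A few rows that these rules also name are not reported here.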

Additional observations from a re-analysis of the deposited data

How the results depend on the processing

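The heart as a block reflects that all windows of a heart come from 1 animal; with no replicate block the test called 0 members in each of the 4 comparisons and the medians of the log2 fold changes were 0.19 (ventricle minus atrium), 0.48 (AV canal minus chambers), -0.87 (sinoatrial region minus chambers) and 1.06 (outflow tract minus rest). Leaving out 1 heart at a time gave 0 to 58 members called between outflow tract and rest, with medians of 0.24 (without heart 2) to 1.24 (without heart 3), and medians of -0.34 (without heart 2) to 0.26 between ventricle and atrium. The count for the outflow tract was 13 without sections under 10000 reads, 22 with placement by deeper sections and 38 without the outflow window of heart 3, the last 2 chosen after seeing the data. Limma on log2 CPM with a prior count of 2 and no weights on hearts 1 and 2, also added then, gave a count of 16 for the outflow tract, where the weighted fit of these hearts gave 58, and a median of 0.4061 between ventricle and atrium. The outflow tract median of 1.06 became 0.53 with RLE factors, 0.54 with limma on log2 CPM and 1.56 without shallow sections. It was -0.26 against 1 pooled sum of sections 12 to 39 in a fit of its own. The AV canal median of 0.50 became 0.0933 with RLE factors, 0.0688 with total gene reads and 0.14 with that total less the most abundant row. It was 0.17 against 1 pooled sum of the chambers with the study's longer atrium window. The sinoatrial median of -0.85 became -0.17 with RLE factors. The cause of these differences was not tested. Without the most abundant row the summed level was 1477 in heart 1 and 1871 in heart 2, and the outflow tract over rest was 1.70, 1.75 and 1.53 in the 3 hearts. Deeper placement gave 1.72 in heart 2 and 1.16 in heart 3, and the ratio per spike-in read, added after seeing the data, was 2.81, 24.0 and 0.0373. The DESeq2 alternative was not run. Of 316 values for single members under 14 alternatives of the fits, 302 stayed on their side of the threshold and 14 passed it newly. The depth of heart 3's outflow window, 14700 reads, limits each value that rests on it.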
